A study of Mus musculus with 4 samples.

Results

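Schlafen genes encode a family of proteins first described as growth regulators of developing T cells. Slfn1 and Slfn2 are short members, Slfn3 and Slfn4 are of intermediate length, and longer members carry a helicase-like domain. Slfn2 is known to be needed for T cells to stay quiescent and to survive activation, and it binds tRNAs and protects them from cleavage. Forced expression of Slfn1 arrests the growth of T cells, Slfn3 has been studied in T cell subsets and in gut epithelial differentiation, and Slfn4 is best known from myeloid cells. Several members are induced by interferons.

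Slfn1, Slfn2, Slfn3 and Slfn4 were followed by the probe sets that the platform annotation gives to a single one of them, whatever their values. A probe set is a group of short array probes read together as 1 value, and some probe sets can match more than 1 gene. Of the 8251 genes with a probe set of their own, 3 are Schlafen genes, with 4 probe sets of 12422 on the array, leaving out 66 control probe sets: 1 for Slfn1, 2 for Slfn2, 1 for Slfn4 and 0 for Slfn3. The annotation gives 1 further probe set to Slfn3 and Slfn4 jointly, so its values belong to neither gene alone. The data are 4 arrays of a mouse Th1 clone, a line of interferon-gamma-producing CD4 helper T cells. Control arrays 1 and 2 hold RNA of the normal, quiescent clone, and anergic arrays 1 and 2 hold RNA of the clone made anergic, that is, poorly responsive to a new stimulus, with antibody against CD3 fixed to a plate. The labels name no other genotype or agent, speak of a single Th1 clone, and do not state the antibody dose, the length of treatment, the time of harvest or whether arrays came from separate cultures. P-values therefore measure the spread between arrays, which may be technical. The study asked which genes are raised in anergy.

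The 4 Schlafen genes lie side by side, in the order Slfn2, Slfn1, Slfn4 and Slfn3, in the RefSeq annotation of GRCm38.p6, and their annotated promoters share 1 short stretch. It is shown first because all 4 genes share it. The windows below run 5′ to 3′ on the plus strand of chromosome 11, from RefSeq's sequence of GRCm38.p6, and the capitals mark the longest run of bases found in all 4 promoters (250 bases before to 50 bases after each annotated start). The windows are chr11:83065033-83065089 for Slfn2, chr11:83116722-83116778 for Slfn1, chr11:83175089-83175145 for Slfn4 and chr11:83191264-83191320 for Slfn3.
Slfn2: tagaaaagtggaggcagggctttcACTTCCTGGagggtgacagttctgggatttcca
Slfn1: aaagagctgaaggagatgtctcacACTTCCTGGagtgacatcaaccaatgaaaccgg
Slfn4: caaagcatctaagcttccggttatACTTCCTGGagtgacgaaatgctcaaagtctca
Slfn3: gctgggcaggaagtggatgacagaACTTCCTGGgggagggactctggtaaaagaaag

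The shared run of 9 bases, ACTTCCTGG, begins at -55 in Slfn2, -74 in Slfn1, -73 in Slfn4 and -42 in Slfn3, counted from the annotated start. On either strand it is found in 277 of 32851 RefSeq mouse promoters of the same length (0.843%). Read on the other strand it holds CAGGAAGT, a form of the binding motif of Ets factors, so the 2 overlap; CAGGAAGT is in 3.33% of promoters and in all 4 of these. The run was found by comparing the sequences, and a match is only a match of letters. Other motifs were searched on both strands. GAAANNGAAA, a form of the interferon-stimulated response element (3.44% of promoters), has no exact match in the 4 windows of 300 bases. Nor has TTCNNNGAA, a form of the gamma-activated site (8.30%). Sites that differ in a letter, or lie outside these windows, were not searched. TGANTCA, the AP-1 motif (7.81%), is in Slfn4 from -34 to -28. The NF-kB motif (8.46%) is in Slfn1 from -43 to -34, and GGAAA, the NFAT core (61.3%), is in Slfn2 from -28 to -24. The whole Slfn2 promoter, chr11:83064862-83065161 on the plus strand, is printed because Slfn2 is the member whose call is described next.
Slfn2: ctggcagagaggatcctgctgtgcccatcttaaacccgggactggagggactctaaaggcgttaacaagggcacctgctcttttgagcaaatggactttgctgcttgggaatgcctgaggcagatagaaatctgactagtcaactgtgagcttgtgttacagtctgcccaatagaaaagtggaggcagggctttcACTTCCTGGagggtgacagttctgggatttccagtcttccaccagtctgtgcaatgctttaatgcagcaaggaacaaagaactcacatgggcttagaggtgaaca

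Slfn2 rose in anergic cells, while Slfn1 and Slfn4 did not pass the test. The deposited values are intensities, the brightness of a probe set on a linear scale. At the Slfn2 probe set 92471_i_at the intensity was 126.3 on control array 1 and 281 on control array 2, against 1270.9 on anergic array 1 and 3543.2 on anergic array 2. Both anergic arrays lay above both control arrays, and the lower anergic value was 4.52 times the higher control value. Control arrays averaged 203.7 ± 109.4 and anergic arrays 2407 ± 1607 (SD, 2 arrays per group). Differences were tested with limma on log2(intensity + 29.15), where the added constant steadies dim values and makes folds somewhat too small. On this scale Slfn2 differed by 3.29 ± 0.51 (SE, adjusted p = 0.0225), a 9.81-fold rise with a 95% interval of 4.37 to 22.1. It ranked 13 of 7453 tested probe sets from the largest rise. RNA was measured in bulk, so Slfn2 RNA in more of the cells and more Slfn2 RNA in each cell cannot be told apart.

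The other Slfn2 probe set, 92472_f_at, moved in the same direction by less and missed the threshold. Its intensity was 158.8 and 449 on control arrays 1 and 2, and 729.1 and 1924.6 on anergic arrays 1 and 2. The groups again did not overlap, with the lower anergic value 1.62 times the higher control value. The log2 difference was 2.02 ± 0.54 (SE, adjusted p = 0.167), a fold of 4.06 with a 95% interval of 1.71 to 9.66. When the log2 values of both probe sets were averaged and 5583 genes were fitted, Slfn2 differed by 2.66 ± 0.49 (SE, adjusted p = 0.0227 over these genes). In the manufacturer's naming, the suffix _f marks a probe set whose probes can match several members of a sequence family, and _i one with fewer probes unique to the gene than usual. Whether RNA of related Schlafen genes reached either Slfn2 probe set was not tested. Without anergic array 2 the first probe set was no longer called (2.57 ± 0.51, adjusted p = 0.0508), nor when the variance was not modelled on intensity (3.29 ± 0.56, adjusted p = 0.0991); the second passed without control array 2 (2.70, adjusted p = 2.78e-09). Leaving out 1 array leaves a group with a lone array, which is assumed to vary like the pair of the other group, so these p-values take the spread from 1 pair of arrays and from the other probe sets.

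**Figure D1:**
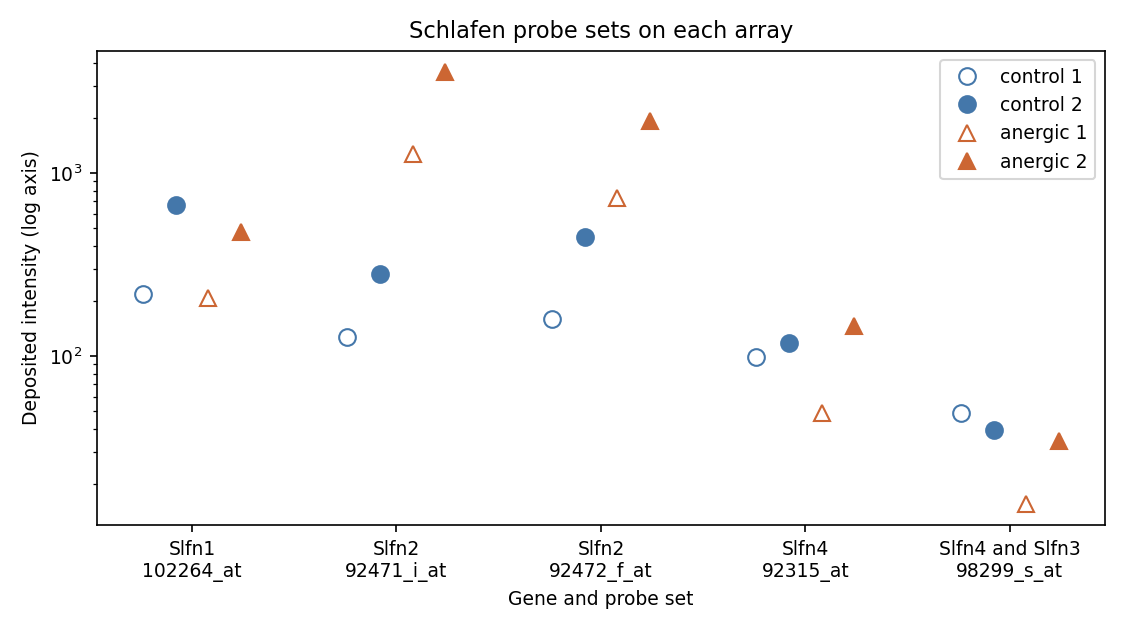
Deposited intensity (log axis) of each Schlafen probe set on each of the 4 arrays; circles are control and triangles anergic arrays, open symbols array 1 and filled symbols array 2. At both Slfn2 probe sets the anergic arrays lie above the control arrays (lowest anergic over highest control 4.52 and 1.62), while at Slfn1 and Slfn4 the groups overlap.

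Slfn1, the other short member, differed between arrays within each group more than between groups. Its probe set 102264_at was at 219.4 and 663.9 on control arrays 1 and 2, and at 207.5 and 475.1 on anergic arrays 1 and 2. Array 2 was thus 3.03 times array 1 in control cells and 2.29 times array 1 in anergic cells, and the groups overlapped. The group means were 441.7 ± 314.3 and 341.3 ± 189.2 (SD, n = 2 each). The log2 difference was -0.26 ± 0.54 (SE, adjusted p = 0.923), with a 95% interval from -1.52 to 0.99. The interval excludes neither a fall to 0.35 of the control level nor a rise to 1.98 of it, and the sign of the difference was positive without control array 2 (0.47) and without anergic array 1 (0.28).

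Slfn4, the member known from myeloid cells, was dim. Its probe set 92315_at was at 99.1 and 117.7 on control arrays 1 and 2, and at 48.8 and 146.7 on anergic arrays 1 and 2. Both control values lay between the anergic values. The mean log2 value over the arrays was 6.99, just above the 6.93 needed to be tested. The difference was -0.23 ± 0.54 (SE, adjusted p = 0.935), with a 95% interval from -1.47 to 1.01, and without anergic array 1 it was 0.36. The probe set given to Slfn3 and Slfn4 together, 98299_s_at, was dimmer still and was not tested. It was at 48.7 and 39.5 on control arrays 1 and 2, and at 15.6 and 34.4 on anergic arrays 1 and 2. Both anergic values were below both control values there, but they cannot be assigned to Slfn3 or Slfn4, and no value of Slfn3 by itself is given.

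Of the 4 Schlafen probe sets, all of which passed the filter on low values, limma called 1 higher and 0 lower, and 2 had an unadjusted p below 0.05, as did 839 of all 7453 tested probe sets (11.3%). Over all 7453 tested probe sets 0.912% were called higher and 0.429% lower. With each array centred on its median, 52 were called higher and 12 lower in place of 68 and 32, and the median difference over all tested probe sets moved from -0.09 to 0.02; Slfn2 was then at 3.40 (adjusted p = 0.0207). Both Slfn2 probe sets had anergic arrays above control arrays, which was so for 16.8% of tested probe sets, and none of these 4 had both anergic arrays below both control arrays, against 23.5%. The scatter of all tested probe sets places both Slfn2 probe sets at the upper edge and Slfn1 and Slfn4 near 0. At all 4 Schlafen probe sets array 2 was brighter than array 1 in each group, as it was at 44.6% of tested probe sets.

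**Figure D2:**
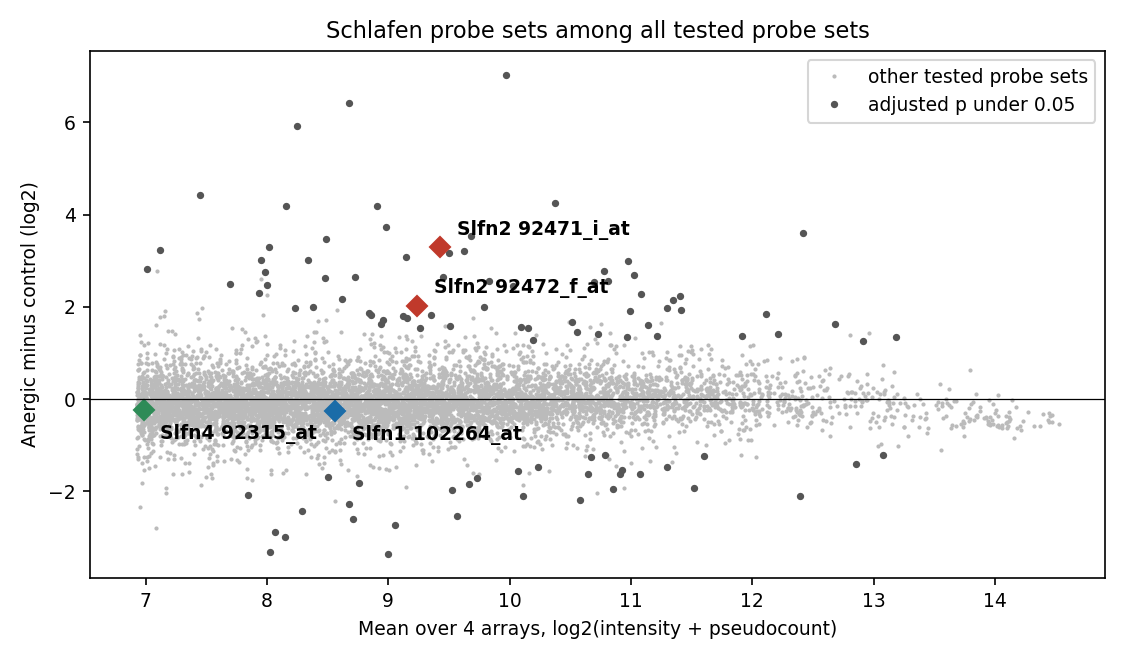
Log2 difference, anergic minus control, against the mean log2 value over the 4 arrays for the 7453 tested probe sets; dark points have adjusted p under 0.05 and diamonds are the Schlafen probe sets. Slfn2 lies at 3.29 and 2.02, Slfn1 at -0.26 and Slfn4 at -0.23.

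Whether the Schlafen genes differed from one another was asked on each array. The log2 value of Slfn2 (92471_i_at) minus that of Slfn1 was -0.68 and -1.16 on control arrays 1 and 2, and 2.46 and 2.83 on anergic arrays 1 and 2. The gap thus shifted by 3.56, with no overlap between groups. Slfn2 minus Slfn4 shifted by 3.52, also without overlap, and Slfn1 minus Slfn4 shifted by -0.04, with overlap. Between the 2 Slfn2 probe sets the shift was 1.27, without overlap, so the first moved more than the second on these arrays. The two-sided exact permutation p was 0.333 for each of the 3 shifts without overlap, the smallest that 2 arrays against 2 allow, and 0.444 after adjustment over the 4 pairs compared. For Slfn1 against Slfn4 the exact p was 1.

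**Figure D3:**
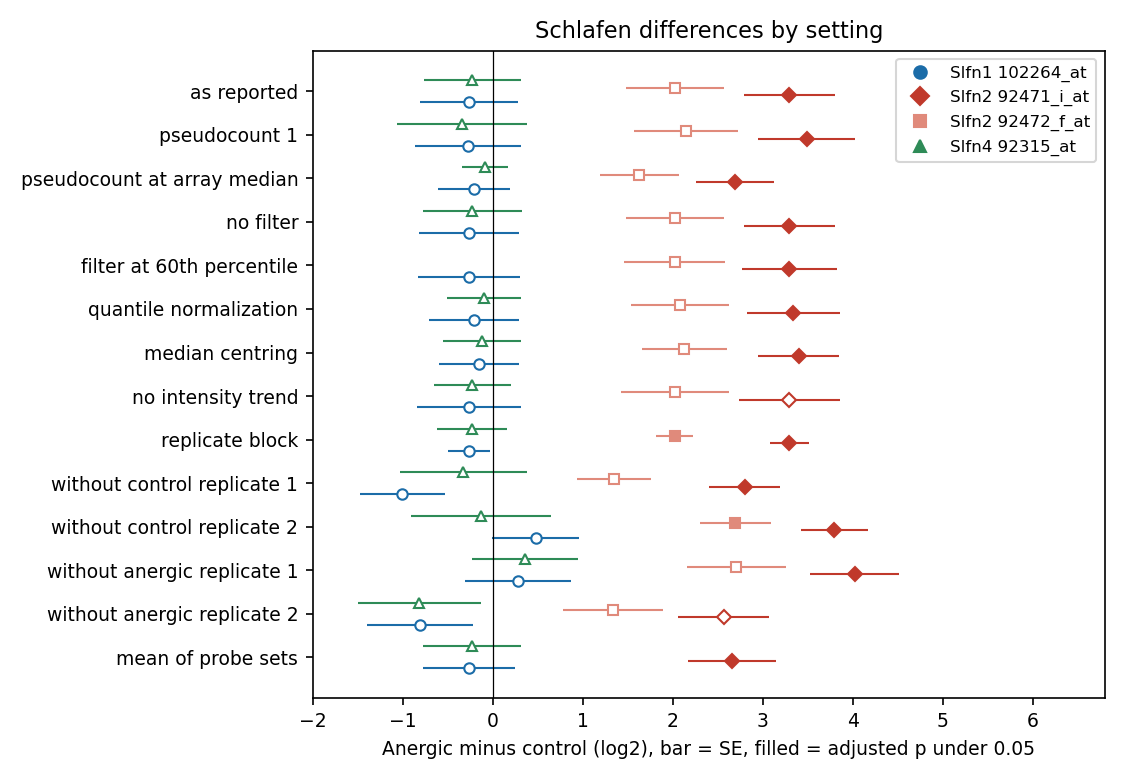
Log2 difference, anergic minus control, of each Schlafen probe set (bars are SE) as reported and under each alternative processing; filled symbols have adjusted p under 0.05. Both Slfn2 probe sets stay above 0 in every setting shown, while Slfn1 and Slfn4 change sign when single arrays are left out, and Slfn4 is missing at the 60th percentile filter; for the mean of probe sets the Slfn2 symbol is the average of both probe sets.

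The probe sets most like each Schlafen gene were taken by the distance between log2 values over the 4 arrays, each centred on its own mean, among 6667 other tested probe sets of a single gene. Nearest to Slfn2 (92471_i_at) were Scg2, which encodes a granin of secretory granules (distance 0.59), Hspa1b, an inducible Hsp70 chaperone gene (1.04), and Tnfrsf8, the gene of the activation receptor CD30 (1.05). Tnfrsf8 was at 53.8 and 62.3 on control arrays and 604 and 755.9 on anergic arrays, and rose by 3.02 (adjusted p = 0.0064). Scg2 was at 8.4 and 25.7 on control arrays, below the added constant of 29.15, and 299.8 and 528.3 on anergic arrays. It was called higher (adjusted p = 0.0213), but the size of its log2 difference, 3.24, depends on that constant. Hspa1b differed by 2.26 (adjusted p = 0.102). The second Slfn2 probe set came 8th, at 1.30. Nearest to Slfn1 were A530040E14Rik (0.08), Zfp277 (0.09) and Myl1 (0.13), none of which passed. Nearest to Slfn4 were Rflnb (0.02), Lpp (0.05) and Septin4 (0.06), none of which passed. All these genes were chosen by likeness over the same arrays, so their calls, or lack of calls, largely follow from the choice. The control values of Scg2 and Tnfrsf8 lay below the filter's level, so both were tested through their anergic values. With 4 arrays such likeness is a description only.

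None of the other tested genes of T cell quiescence was called higher beside Slfn2, and 2 fell. Of 38 listed genes 31 had a probe set of their own and 25 passed the filter; 0 rose, 2 fell and 23 did not pass in limma, with 10 at an unadjusted p under 0.05. Over all 7453 tested probe sets 0.912% were called higher, 0.429% lower and 11.3% had such an unadjusted p. Txnip, which restrains glucose uptake, was at 5102.1 and 4372.8 in control and 1942.9 and 2060.4 in anergic cells, and fell by 1.23 in log2 units, with an adjusted p of 0.0451. Il7r, which encodes the alpha chain through which T cells sense IL-7, was at 1475.9 and 3445.4 in control and 485.1 and 526.8 in anergic cells, and fell by 2.10 (adjusted p = 0.0461). Groups did not overlap at either gene. Among those that did not pass, Rbl1, a retinoblastoma-like repressor of E2F targets, differed by 1.25 ± 0.33 and Cdkn1a, the p21 inhibitor of cyclin-dependent kinases, by 1.07 ± 0.28 (SE). Foxp1 (1.31) and Tob1 (0.83) were also higher on both anergic arrays without passing. The rest of the 10 with an unadjusted p under 0.05 were lower on both anergic arrays, also without passing. These were Cdkn2d (-0.76), S1pr1 (-1.23), Klf10 (-1.08) and Klf6 (-0.61). By sign 9 genes of the list were higher and 16 lower (64%), where 58.1% of all tested probe sets were lower. The list's median difference was -0.16, beside -0.09 over all tested probe sets. Both falls missed the threshold without either anergic array (Txnip -1.19 and -1.27, Il7r -2.04 and -2.15) and with centring on the array median. They also missed it with no filter and when the variance was not modelled on intensity. Il7r, but not Txnip, missed it with the filter at the 60th percentile and with quantile normalization as well.

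Interferon-induced genes, the class to which several Schlafen genes belong, had mostly lower values in the same anergic cells, with 2 passing the test. Of 50 listed genes 36 had a probe set and 32 passed the filter; 0 rose, 2 fell and 30 did not pass in limma (0.912% higher and 0.429% lower over all tested probe sets), with 15 at an unadjusted p under 0.05 (11.3% over all). By sign 28 were lower and 4 higher in anergic cells, where 4327 of all 7453 tested probe sets (58.1%) were lower. The median difference was -0.65, beside -0.09 over all. Isg20, an antiviral exonuclease gene, was at 3390.1 and 4207.8 in control and 1145.4 and 1251.9 in anergic cells, and fell by 1.63 (adjusted p = 0.0166). Irf9, the DNA-binding subunit of the interferon-activated complex ISGF3, fell by 1.47 (adjusted p = 0.0379). Iigp1, an interferon-inducible GTPase gene, differed by -1.62 ± 0.41 and Ifit1, an inhibitor of viral RNA translation, by -2.80 ± 0.72 (SE), and neither passed (adjusted p = 0.137 and 0.146). Ifit1 itself varied among control arrays, with 136.6 and 743.5, and was at 13.4 and 33.1 on anergic arrays. The calls of Isg20 and Irf9 were lost without either anergic array (Isg20 -1.57 and -1.70, Irf9 -1.63 and -1.31) and with centring on the array median. Both were also lost when the variance was not modelled on intensity, and that of Irf9 with no filter.

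Cell cycle genes are set beside the Schlafen genes because Slfn2 and Slfn1 are tied to restrained growth. Of 38 listed genes 34 had a probe set and 28 passed the filter; 0 rose, 1 fell and 27 did not pass in limma, with 6 at an unadjusted p under 0.05 and a median difference of -0.18. The same over all tested probe sets were 0.912% higher, 0.429% lower, 11.3% and -0.09. Myc, a driver of T cell growth, was at 377.6 and 516.5 in control and 66.4 and 101.5 in anergic cells, and fell by 2.08 (adjusted p = 0.0482). Its call was lost without control array 2 (-1.86), anergic array 1 (-1.85) or anergic array 2 (-2.30). It was also lost with no filter, with a pseudocount of 1 and when the variance was not modelled on intensity. Pola1, a subunit of DNA polymerase alpha, differed by -1.40 ± 0.33 and the DNA ligase gene Lig1 by -1.25 ± 0.33, while the cyclin gene Ccnd2 differed by 1.44 ± 0.41 (SE); none of these passed.

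**Figure D4:**
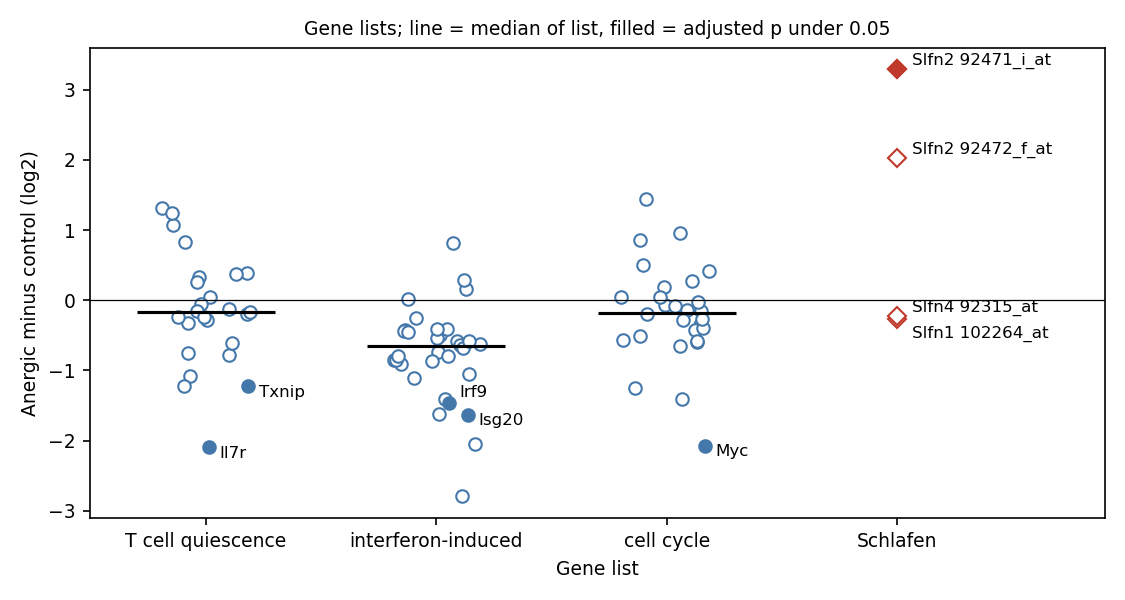
Log2 difference, anergic minus control, of the tested genes of each list (circles, 1 probe set per gene; lines are medians) and of the Schlafen probe sets (diamonds); filled symbols have adjusted p under 0.05. The list medians are -0.16, -0.65 and -0.18, and no list gene reaches the 3.29 of Slfn2.

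The genes around the Schlafen run were taken by their order alone, 20 protein-coding genes on each side in RefSeq. Of these 40 genes 20 had a probe set and 12 passed the filter. Of the 12, 5 rose, 0 fell and 7 did not pass, where 0.912% of all tested probe sets were called higher and 0.429% lower. The filter was on the mean over all 4 arrays, here and for all probe sets alike. A gene dim on control arrays, as Ccl9 was, was thus tested through its anergic values, while genes dim throughout were left out. The count among tested genes therefore partly follows from the filter. The Schlafen genes next to the run, Slfn8 and Slfn9 on one side and Slfn14 on the other, have no single-gene probe set in the annotation used here, nor does Slfn5. The 5 that rose are the CC chemokine genes Ccl1, Ccl5, Ccl9, Ccl3 and Ccl4, secreted attractants of leukocytes. Other CC chemokine genes of the stretch, Ccl2, Ccl7, Ccl11, Ccl12, Ccl8 and Ccl6, were below the filter and not tested. Their log2 differences, at dim values, ran from -0.59 (Ccl7) to -0.07 (Ccl8). Ccl9 was at 85.8 and 37.9 in control and 10375.8 and 12664.2 in anergic cells, and rose by 7.03 ± 0.32 (SE, adjusted p = 0.000105). The others rose by 3.60 (Ccl1), 3.03 (Ccl4), 2.77 (Ccl3) and 1.35 (Ccl5), with adjusted p between 0.00189 and 0.0368. The tested genes nearest to the run on either side did not pass: Ap2b1, an adaptor gene of clathrin coats, differed by 0.22 ± 0.31 and Rad51d, a recombination gene, by -0.07 ± 0.41 (SE). Calls were thus not shared by every tested gene of the stretch. The 95% interval of the log2 difference ran from -0.49 to 0.92 at Ap2b1 and from -1.01 to 0.88 at Rad51d. Smaller rises of these genes are therefore not excluded. Ccl5 lost its call without anergic array 1 (1.47) or 2 (1.24), and Ccl4 without anergic array 1 (2.94). Ccl5 also lost it with no filter, and Ccl5 and Ccl1 lost theirs when the variance was not modelled on intensity.

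**Figure D5:**
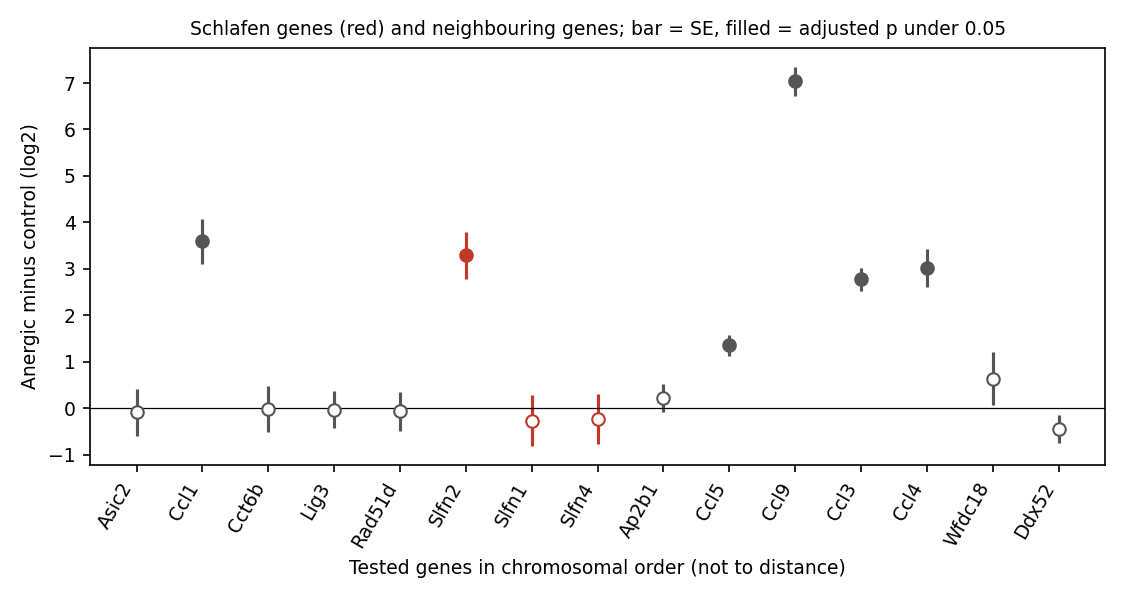
Log2 difference, anergic minus control (bars are SE), of the 12 tested neighbouring genes and of Slfn2, Slfn1 and Slfn4 (red) in chromosomal order, without distances; filled symbols have adjusted p under 0.05. Slfn2 (3.29) and 5 chemokine genes are filled, and Slfn1, Slfn4 and 7 neighbours are not.

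The T cell label and other possible sources of Schlafen RNA were read from marker genes. All 11 measured T cell and Th1 markers of 13 listed passed the filter and none was called, with summed intensities of 65736.7 and 55254.1 on control arrays and 56623.1 and 53551.1 on anergic arrays. Single markers moved both ways without passing in limma. Cxcr3 was at 835.3 and 867.1 in control and 218.8 and 336.6 in anergic cells (-1.55, adjusted p = 0.0642). Ifng was at 2131.9 and 2649.1 in control and 3868.5 and 4864.3 in anergic cells (0.86, adjusted p = 0.184). The groups also did not overlap at Cd3d and Cd4, which were higher, or at Thy1 and Zap70, which were lower. Macrophage and dendritic cell markers, which matter because Slfn2 and Slfn4 are also myeloid genes, summed to 1762.7 and 2476.9 in control and 1878.1 and 2774.9 in anergic cells over 13 genes, with none at 0. Of these, 7 passed the filter, and Cd68, a lysosomal membrane glycoprotein gene, rose by 2.31 (adjusted p = 0.0216), from 71 and 91.3 to 497.6 and 531.5. Without anergic array 1 (2.35) or 2 (2.26), or with no filter, Cd68 was not called. Both control values of Cd68 lay below the filter's level, so it was tested through its anergic values. The other 6 that passed the filter were not called, among them Cd14, a lipopolysaccharide co-receptor gene, at 764.1 and 931.9 on control and 684.4 and 858.2 on anergic arrays. The rest were Csf1r, C1qb, Itgax, Fcgr1 and Mpeg1. Csf1r was at 170.6 and 232.9 on control and 117.6 and 344.1 on anergic arrays. C1qb was at 86.1 and 260.7, then 174.3 and 347.1, and Itgax at 43.7 and 146.7, then 93.5 and 131.3. Fcgr1 was at 111 and 167, then 63.7 and 176.2. At Mpeg1 (213.6 and 320, then 93.8 and 155.8) both anergic values were below both control values, and at the others the groups overlapped. The 6 markers below the filter were Lyz2, Adgre1, Itgam, Marco, C1qa and Msr1. At Lyz2 (129.1 and 73.3 on control, 11.7 and 11.4 on anergic arrays) both anergic values were lower. So they were at C1qa (73.2 and 45.8, then 24.3 and 37.4). At Adgre1 (24 and 20.2, then 36.4 and 36.9) both were higher. The groups overlapped at Itgam (12.3 and 17.4, then 8.2 and 33.6) and Marco (5.2 and 17.1, then 8.8 and 19.3). They also overlapped at Msr1 (58.8 and 152.6, then 63.8 and 92.1). Of the other markers, 4 of 6 B cell, 3 of 7 granulocyte and 2 of 4 fibroblast genes passed the filter. In the CD8 T and NK list 1 of 4 did. None of these was called, and the rest were too dim to be tested. Klrk1, the only tested gene of the last list, differed by 1.13 (adjusted p = 0.574). The part of other cells in the Slfn2 result was not tested.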

How the data were processed

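Biotin-labelled RNA was measured on 4 arrays, and the authors deposited 1 linear intensity for each of 12488 probe sets; trimmed means of 500.3 on every array show scaling before deposit, and the software is not given in the sources used here. Gene names come from the platform annotation held by GEO. Intensities were taken as log2(value + 29.15), the median over arrays of the 20th percentile, and probe sets above the 40th percentile of the mean (7453) were fitted with limma 3.58.1 in R 4.3.3 (lmFit, eBayes with intensity trend; 2 residual and 6.17 prior degrees of freedom). Tests were two-sided with Benjamini-Hochberg adjustment over all tested probe sets at 0.05. List and neighbouring genes were represented by the tested probe set with the highest mean. Named genes were all Schlafen probe sets, 3 nearest profiles per gene, 4 genes of smallest p per list, neighbours that passed and those next to the run. All quiescence genes with an unadjusted p below 0.05 were also named. So were the untested CC chemokine genes near the run. Markers were named after their values were seen, and the shared promoter run was found after the sequences were read. The members and lists were chosen with earlier results of these data known. The fit was tested on simulated data with independent errors on each array. Shared deviations of same-numbered arrays were not simulated, so that test does not bear on them. Precision is limited by 2 arrays per group. Alternatives kept the same tested probe sets unless the filter changed, except the mean of probe sets, which was fitted over 5583 genes.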

Additional observations from a re-analysis of the deposited data

How the results depend on the processing

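Both Slfn2 probe sets kept their direction under every alternative that could be fitted. The number in the titles is not said to pair arrays, but deviations of same-numbered arrays from their group means correlated at 0.54. With the replicate number as a block, Slfn2 was at 3.29 and 2.02 with adjusted p = 6.88e-07 and 3.77e-05, so 2 Schlafen probe sets were called. Without the intensity trend 0 were called (3.29 at 92471_i_at). Leaving out 1 array gave 0 to 2 calls, 2.57 to 4.02 at 92471_i_at, 1.34 to 2.70 at 92472_f_at, -1.0 to 0.47 at Slfn1 and -0.82 to 0.36 at Slfn4. The pseudocount at the array median lowered the shifts between probe sets to 2.90 (Slfn2 minus Slfn1), 2.78 (Slfn2 minus Slfn4) and 1.07 (both Slfn2 probe sets). At the 60th percentile filter Slfn4 was not tested.

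Calls in lists moved more. With the block, quiescence genes had 4 higher and 6 lower, interferon-induced genes 14 lower, and cell cycle genes 2 higher and 3 lower. Quiescence genes called lower were 0 with no filter, centring or no trend, and 1 with the stricter filter or quantile normalization. Interferon-induced genes called lower were 1 with no filter and 0 with centring or no trend. Cell cycle genes called lower were 0 with a pseudocount of 1, either other filter or no trend. Without single arrays, quiescence genes called higher ranged from 0 to 2 and lower from 0 to 3, interferon-induced genes higher from 0 to 1 and lower from 0 to 11, and cell cycle genes higher from 0 to 1 and lower from 0 to 1. Neighbouring genes called higher were 3 with no trend and 3 to 5 without single arrays. Over all probe sets, 68 higher and 32 lower became 42 and 17 with no filter, 28 and 10 with no trend, 389 and 372 with the block, and 12 lower with centring, where 52 were higher; without single arrays they were 27 to 211 and 12 to 143. The causes were not tested.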
